A study of Homo sapiens with 42 samples.

Results

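The 98 transcripts described here were those with more RNA at 24 h than at 8 h in solvent-treated cultures of both OCI-Ly3 and TMD8 cells. They were chosen from the 12 libraries of cells given DMSO, the solvent. A row of the count table, which is 1 numbered gene model, had to average at least 2 CPM (read counts scaled to a fixed library total) over those libraries. The median of log2(CPM + 1) at 24 h then had to exceed the median at 8 h by 0.5 or more in each line. Of 23250 rows, 11030 reached the level, 380 of these the change in OCI-Ly3, 655 in TMD8 and 98 in both. The files number the rows and do not pair them with gene names, so 4 rows are cited by number and the others by what they did. The level of MALT1 itself is not reported here.

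OCI-Ly3 and TMD8 are established human cell lines of the activated B cell-like type of diffuse large B-cell lymphoma. In the compound experiment both lines were given 100 nM of compound 3, which the series describes as a covalent MALT1 inhibitor, or DMSO, and RNA was taken after 8 h or 24 h, which gives 8 groups of 3 libraries. In the knockdown experiment a lentivirus brought into each line a non-targeting hairpin, MALT1 hairpin 1 or MALT1 hairpin 2, which gives 6 groups of 3. No time after infection, dose of virus or selection is in the labels used here, and every knockdown library, controls included, came from infected cells. Whether replicates were separate cultures is not in the labels used here, so a p-value speaks of the spread among these libraries alone, and that spread may be technical.

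MALT1 is a protease and scaffold protein that passes signals from the B cell receptor to the transcription factor NF-kB. It cleaves several negative regulators of that pathway, and lymphoma cells of the activated B cell-like type often depend on its activity. A covalent inhibitor blocks the protease and leaves the protein in place, whereas a hairpin lowers the messenger RNA and so removes the protein with both of its functions. Cells in a closed culture meanwhile use up medium, grow denser and recover from handling, so a solvent group at each time is the usual way to separate such changes from those of a drug.

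At 1 CPM a row held 32.3 to 40.9 reads in libraries treated with compound 3 or DMSO and 20.5 to 24.5 reads in knockdown libraries. All 98 rows could be tested after compound 3 and 97 after knockdown, since 1 was listed at 0 CPM in all 18 knockdown libraries. Some libraries stood apart from their group. Both TMD8 libraries numbered 1 at 8 h, DMSO and compound 3, differed from their 2 sister libraries by over 1 log2 unit in 544 and 556 rows. So did OCI-Ly3 non-targeting replicate 1 in 1168 rows. Several results that rest on these libraries are given with and without them. Counts without overlap, counts of 2-fold changes and some other counts and row values are given with all libraries only.

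In DMSO the change from 8 h to 24 h that chose the rows ran from 0.50 to 1.03 on the log2 scale in OCI-Ly3, with a median of 0.62. In TMD8 it ran from 0.50 to 1.84, with a median of 0.68. The change was at least 2-fold in 3 rows in OCI-Ly3 and in 8 rows in TMD8. Over all eligible rows the medians were 0.01 in both lines. These values are a description with no test, because they chose the rows. The smaller of the changes in both lines was 0.501, 0.502 and 0.503 in the 3 rows just inside the threshold and 0.499, 0.499 and 0.498 in the 3 just outside it. A further 72 rows had a smaller change between 0.45 and 0.5, and 30 of the 98 lay between 0.5 and 0.55, so the list ends inside a continuous run of values.

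The rows span the range of expression. Mean CPM over the DMSO libraries went from 2.13 to 2017 with a median of 23.3, against a median of 28.9 over all eligible rows. Summed over the 98 rows, OCI-Ly3 libraries held 5039 to 7191 CPM at 8 h and 9427 to 9977 CPM at 24 h in DMSO. TMD8 libraries held 3169 to 6842 CPM and 9143 to 9992 CPM. The 24 h sums lay above every 8 h sum of the same line. Row by row, every 24 h DMSO library lay above every 8 h one in 69 rows in OCI-Ly3 and 88 in TMD8, where 10.1% and 15.2% of all rows tested did so, counts that the rule itself favours. The RNA came from bulk cultures, so fewer cells of one state and less RNA per cell cannot be told apart.

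The 8 h libraries differed among themselves more than the 24 h libraries did. In TMD8 the median of the 98 rows, relative to the mean of the line, was -1.01 in DMSO replicate 1 at 8 h and -0.04 and -0.18 in the other two. With compound 3 it was -1.01 in replicate 1 and 0.02 and -0.23 in the other two. At 24 h the 6 TMD8 libraries lay between 0.33 and 0.52. In OCI-Ly3 the DMSO libraries at 8 h stood at -0.52 in replicate 1 and at -0.13 and -0.21, so replicate 1 was again the lowest. More than 1 log2 unit separated TMD8 replicate 1 from its group in 35 of the 98 rows with DMSO and in 37 with compound 3. These TMD8 libraries had 72.2% and 71.9% of their reads in the rows, against 73.6% to 75.7% in the other TMD8 libraries at 8 h. The part of this difference in the results was not tested.

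**Figure D1:**
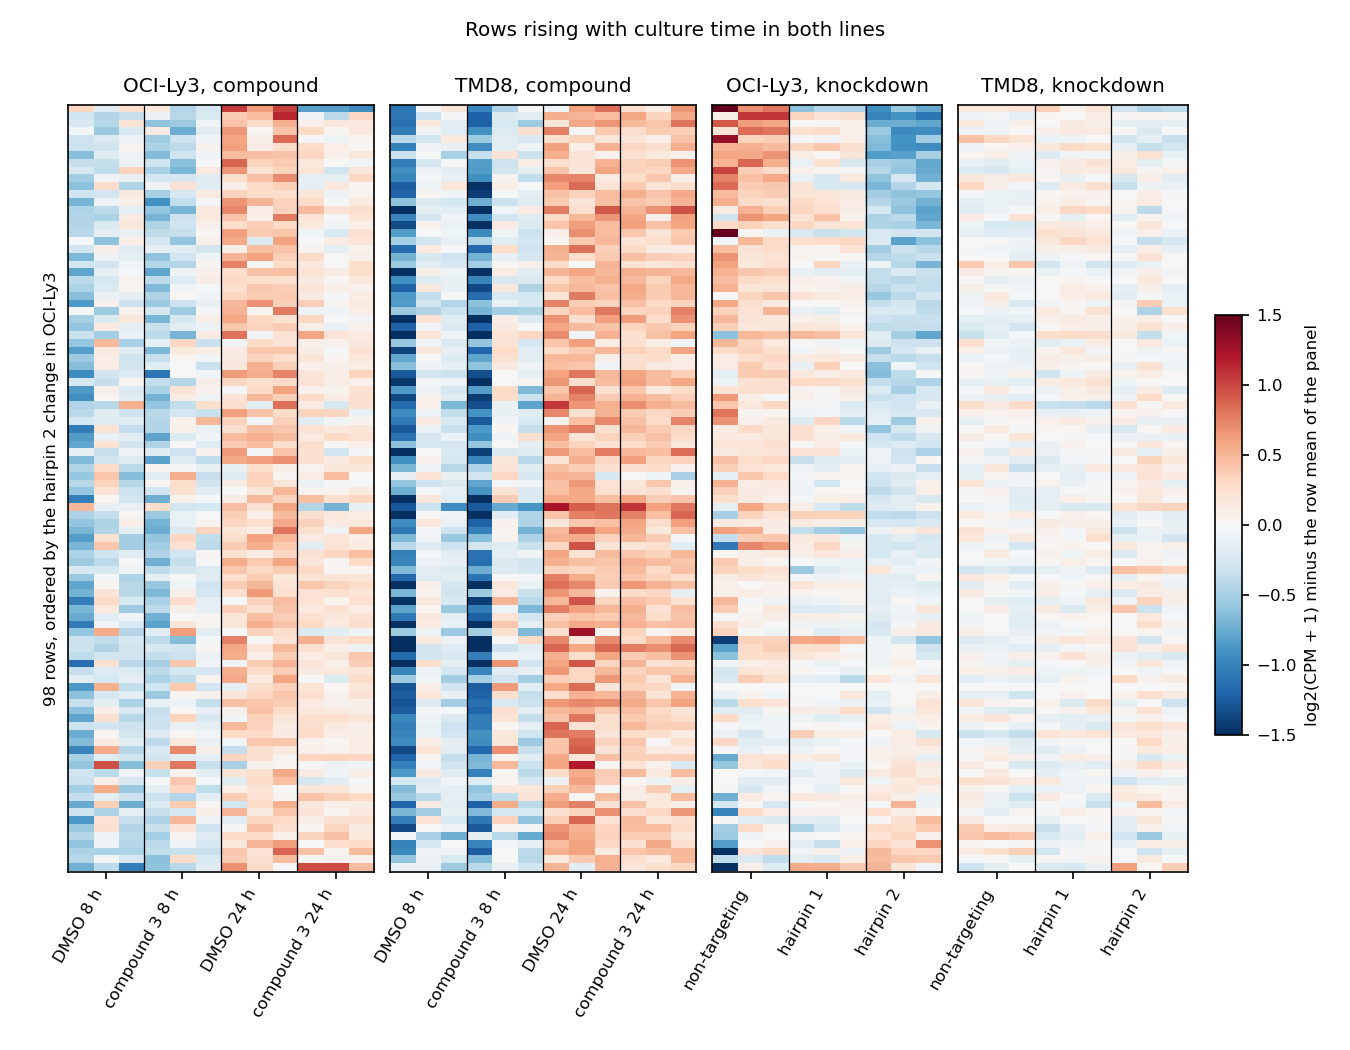
Each line of the heat map is 1 of the 98 rows and each column 1 library, with colour for log2(CPM + 1) minus the mean of the row within the panel, cut at 1.5. Rows are ordered by their change with hairpin 2 in OCI-Ly3. The 24 h columns are redder than the 8 h columns in both lines, and the TMD8 8 h libraries numbered 1 are the darkest blue. Other 8 h columns are paler, with medians from -0.52 in OCI-Ly3 DMSO replicate 1 to 0.02 in TMD8 compound 3 replicate 2. The hairpin 2 columns of OCI-Ly3 are blue for most rows while the TMD8 knockdown panel is pale.

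**Figure D2:**
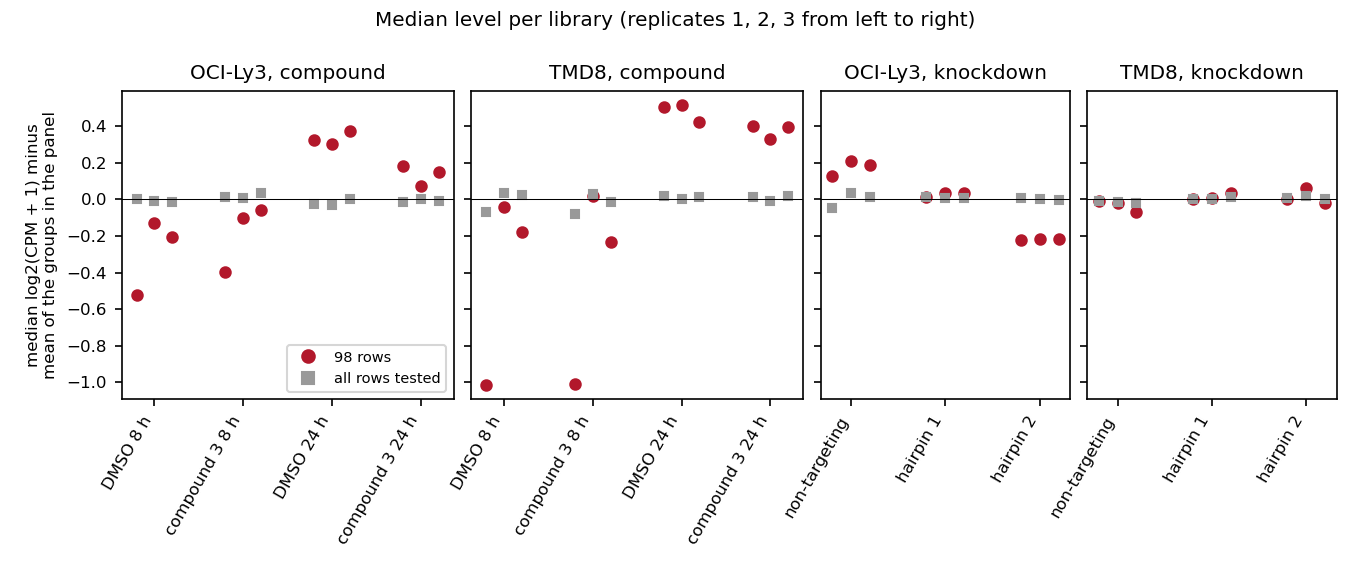
Points give the median of log2(CPM + 1) minus the mean of the groups in the panel, for the 98 rows (red circles) and for all rows tested (grey squares), 1 point per library. The red points at 8 h reach -1.01 in TMD8 while the grey points stay within 0.1 of 0.

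The choice of rows rested on these 8 h libraries and on those at 24 h. Without DMSO replicate 1 at 8 h in TMD8, which stood apart, 76 rows met the rule, 75 of them among the 98. Without DMSO replicate 1 at 8 h in OCI-Ly3, 51 rows met it, 46 of them among the 98. Without OCI-Ly3 DMSO replicate 2 at 8 h 175 rows met it, 84 of them among the 98. Without TMD8 DMSO replicate 2 or 3 at 8 h 206 and 204 did, 97 and 96 of them among the 98. Leaving out a 24 h DMSO library gave 94 to 136 rows in OCI-Ly3 and 100 to 111 in TMD8. Of these, 72 to 84 and 82 to 83 were among the 98. With group means in place of medians 197 rows met it, 71 of them among the 98.

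The question left by the rule is whether the same rows were also higher at 24 h in cells given the inhibitor, in libraries that the rule did not use. In TMD8 with compound 3, 35 of the 98 rows rose from 8 h to 24 h and none fell (limma, adjusted p below 0.05), where 3.42% of all rows tested rose and 3.03% fell. The median change was 0.78 on the log2 scale, against 0.03 over all rows, and 97 of the 98 lay above 0. Of those that rose, 18 did so at least 2-fold. In OCI-Ly3 1 of the 98 rows rose and none fell, where 0.357% of all rows rose and 1.12% fell. The median there was 0.31 against -0.02 over all rows, and 90 of the 98 lay above 0. An unadjusted p below 0.05, in either direction, was reached by 19 of the 98 and by 1867 of the 12589 rows tested. In both lines 89 rows lay above 0, against 30% of all rows tested.

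The same-numbered DMSO and compound 3 libraries were not fully independent. Their deviations from the group means correlated at 0.715 to 0.808 across rows in OCI-Ly3 and at 0.75 to 0.921 in TMD8 at 8 h, so a library that was low with DMSO, which the rule used, was low with compound 3 as well. Without both TMD8 8 h libraries numbered 1, 17 rows rose in TMD8, where 1.57% of all rows rose, and the median was 0.48, with 94 of 98 above 0. Without compound 3 replicate 1 at 8 h alone, 4 rose, where 0.581% of all rows did, and without replicate 2 of the same group 67 did, where 8.19% of all rows did. Leaving out a 24 h library left 6 to 20, where 0.803% to 2.13% of all rows rose. With TMD8 fitted on its own 6 rose, all of them among the 35, where 0.997% of all rows rose. In OCI-Ly3 the count was 10 without both TMD8 8 h libraries numbered 1, against 1.08% of all rows called higher and 1.93% lower. There the changes themselves stayed as they were and the shared spread was smaller.

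The libraries of the groups often did not overlap. With compound 3 in TMD8 every 24 h library lay above every 8 h library in 67 of the 98 rows, where 15.3% of all rows tested did so. In OCI-Ly3 this held for 44 rows, where 10.7% of all rows did so. A single row lay lower at 24 h without overlap in OCI-Ly3, where 14.5% of all rows did so.

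Applied to the 12 compound 3 libraries in place of the DMSO libraries, the rule found 45 rows. Of these, 16 were among the 98, which is 16.3% of the 98 and 35.6% of the 45. The median change reached 0.5 in 69 of the 98 rows in TMD8 and in 21 in OCI-Ly3.

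**Figure D3:**
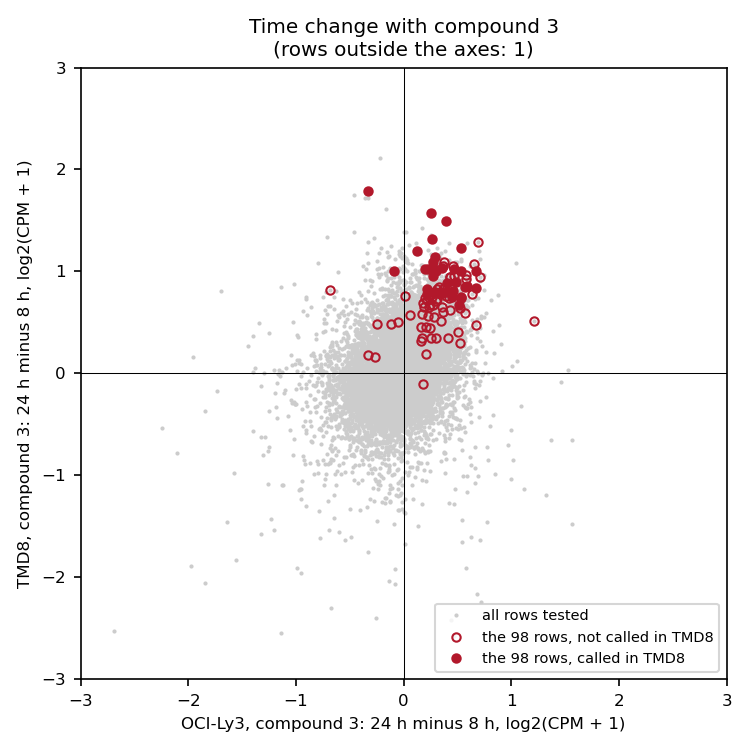
Each point is a row, with the log2 change from 8 h to 24 h with compound 3 in OCI-Ly3 on the horizontal axis and in TMD8 on the vertical axis. Red points are the 98 rows, filled where they rose in TMD8 (35), and grey points are all rows tested, 1 of which lies outside the axes. The red points lie mostly to the upper right and higher above 0 in TMD8, with a median of 0.78, than to the right of 0 in OCI-Ly3, with a median of 0.31.

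No row rose in both lines with compound 3 at the threshold, so the pair with the largest smaller change was taken from all 98 rows. Row 799 held 41.4, 34.5 and 53.9 CPM at 8 h with compound 3 in OCI-Ly3 and 79.5, 63.8 and 67.9 CPM at 24 h. In TMD8 it held 15.1, 50.9 and 62.1 CPM at 8 h and 61.5, 70.3 and 82.9 CPM at 24 h. The groups were apart in OCI-Ly3, while in TMD8 the highest 8 h library lay just above the lowest 24 h library, and replicate 1 at 8 h was far below the others. The log2 change of row 799 was 0.71 in OCI-Ly3 (SE 0.42, limma adjusted p = 0.454) and 0.94 in TMD8 (SE 0.42, adjusted p = 0.167), and 0.33 in TMD8 without replicate 1 at 8 h.

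Row 14642 followed a like course. It held 21.2, 19.5 and 35.8 CPM at 8 h and 45.02, 37.5 and 38.7 CPM at 24 h with compound 3 in OCI-Ly3, and 10.8, 38.5 and 43.4 CPM against 56.8, 64.8 and 77.9 CPM in TMD8. The groups did not overlap in either line. Its log2 change was 0.69 in OCI-Ly3 (SE 0.44, limma adjusted p = 0.481) and 1.28 in TMD8 (SE 0.44, adjusted p = 0.0771). Neither passed the threshold, and the TMD8 change was 0.68 without replicate 1 at 8 h. In DMSO row 14642 had gone from 23.1, 24.2 and 29.1 CPM to 53.5, 34.8 and 41.2 CPM in OCI-Ly3 and from 8.65, 35.7 and 35.2 CPM to 68.2, 47.6 and 76.6 CPM in TMD8.

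The row that rose in OCI-Ly3 with compound 3 held 19.4, 22.2 and 26.3 CPM at 8 h and 59.98, 60.2 and 41.8 CPM at 24 h. The groups were well apart, and the change was 1.21 on the log2 scale (SE 0.21, limma adjusted p = 0.00514). With DMSO it stood at 17.9, 22.7 and 14.1 CPM at 8 h and at 48.8, 36.9 and 29.6 CPM at 24 h. In TMD8 it was a low row, at 2.16 to 2.88 CPM at 8 h and 3.73 to 4.22 CPM at 24 h with compound 3, and its change of 0.51 there was not past the threshold (adjusted p = 0.138).

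The change with time was also compared between the lines. Tested directly, the change with compound 3 differed between OCI-Ly3 and TMD8 in 1 of the 98 rows (limma, adjusted p below 0.05), where 1.59% of all rows differed. The median difference, OCI-Ly3 minus TMD8, was -0.44, and 91 rows lay below 0. Without both TMD8 8 h libraries numbered 1 the median was -0.12 and 69 rows lay below 0. The row that differed rose in TMD8 from 2.40, 3.802 and 3.39 CPM to 16.1, 11.4 and 13.1 CPM, a change of 1.79 (SE 0.24, adjusted p = 0.000179), the largest of the 98. In OCI-Ly3 it went from 6.99, 4.53 and 4.57 CPM to 3.92, 3.08 and 5.19 CPM, a change of -0.33 (adjusted p = 0.546). The difference was -2.12 (SE 0.33, limma adjusted p = 0.0021), and -1.98 without both TMD8 8 h libraries numbered 1 (adjusted p = 0.00358). With DMSO this row had been at 8.38, 5.13 and 5.20 CPM at 8 h and 8.24, 6.74 and 9.10 CPM at 24 h in OCI-Ly3.

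How compound 3 differed from DMSO at a given time is a description here, since the DMSO libraries chose the rows. The threshold calls, p-values and overlap counts that follow are given as values and do not test the rows. At 24 h in OCI-Ly3, 84 of the 98 rows lay lower with compound 3 than with DMSO, with a median of -0.21 on the log2 scale. Over all rows the median was 0.00 and 50.2% lay above 0. Row 14203 passed the threshold there and no other of the 98 did, where 0.771% of all rows did in either direction. Same-numbered libraries of these groups deviated together, and with the replicate number as a block 3 of the 98 were called, where 1.8% of all rows were called higher and 0.572% lower. In 35 rows every compound 3 library lay below every DMSO library, where 11.2% of all rows did so. At 24 h in TMD8, 75 rows lay lower, with a median of -0.08, where 51.3% of all rows lay above 0. There no row passed the threshold and 4 did not overlap on the low side, where no row of the table passed and 2.09% did not overlap. At 8 h the median was 0.08 in OCI-Ly3 and 0.02 in TMD8, with 65 and 53 rows above 0. These medians had no stable sign. Without DMSO replicate 1 they were -0.07 in OCI-Ly3 and -0.30 in TMD8, with 34 and 10 rows above 0, and without compound 3 replicate 1 they were 0.18 and 0.31, with 84 and 93 above 0. None of the 98 passed at 8 h in either line, where 0.0397% of all rows in OCI-Ly3 and none in TMD8 did. None of the 98 had an unadjusted p below 0.05 at 8 h or in TMD8 at 24 h. Of the 12589 rows tested, 163 had one at 8 h in OCI-Ly3, 131 at 8 h in TMD8 and 92 at 24 h in TMD8. The change with time was smaller with compound 3 than with DMSO in 93 rows in OCI-Ly3 and 68 in TMD8. The rule took rows with a large rise in DMSO. It thus favours a smaller change, and a lower 24 h level, with compound 3. Whether the inhibitor had a part in these counts was not tested. With the summed level, the 24 h libraries of OCI-Ly3 held 7779 to 8901 CPM with compound 3 and 9427 to 9977 CPM with DMSO, and those of TMD8 held 8552 to 9542 CPM and 9143 to 9992 CPM.

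The hairpins asked a separate question, whether rows that increase in culture also respond to loss of MALT1, in libraries that shared nothing with the rule. In OCI-Ly3, MALT1 hairpin 2 lowered 59 of the 97 rows tested and raised 6 (limma, adjusted p below 0.05), where 26.1% of all rows fell and 26.7% rose. The median change was -0.40 on the log2 scale against 0.01 over all rows, and 11 of the rows that fell did so at least 2-fold. MALT1 hairpin 1 lowered 21 rows and raised 2, where 7.75% of all rows fell and 7.32% rose, with a median of -0.16 against 0.01 over all rows. Both hairpins were compared with the same 3 non-targeting libraries. Summed over the rows, the OCI-Ly3 libraries held 7246 to 8014 CPM with the non-targeting hairpin, 6534 to 6802 CPM with hairpin 1 and 5357 to 5385 CPM with hairpin 2. The 3 groups were apart, with hairpin 2 the lowest.

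Without overlap, every hairpin 2 library of OCI-Ly3 lay below every control in 57 of the 97 rows, where 25.1% of all rows did so, and above them in 7, where 25.4% did so. For hairpin 1 the counts were 37 below and 5 above, where 17.7% and 17.1% of all rows did so. The share of reads in the rows was 73.6% to 74.7% with hairpin 2 and 78.1% to 79.3% in the OCI-Ly3 controls, and after rescaling each library by its median ratio hairpin 2 lowered 60 rows and raised 6. After that rescaling 25.6% of all rows fell with hairpin 2 and 27.3% rose. For hairpin 2 the counts were between 55 and 70 called rows in every alternative tried. With OCI-Ly3 alone 55 were called, where 21.8% of all rows fell and 21% rose. Without OCI-Ly3 non-targeting replicate 1, 70 were called, 60 of them among the 65 of the main fit. In that setting 29.8% of all rows fell and 27.4% rose. For hairpin 1 the counts depended on the spread used. With OCI-Ly3 fitted on its own, hairpin 1 lowered 5 rows and raised none, where 1.67% of all rows fell and 1.62% rose. Without a hairpin 1 library 13 to 15 rows were called, where 3.95% to 4.7% of all rows fell and 3.66% to 4.07% rose. Without OCI-Ly3 non-targeting replicate 1, 28 were called with hairpin 1, 17 of them among the 23 of the main fit. In that setting 8.39% of all rows fell with hairpin 1 and 7.37% rose.

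Every row that passed with both hairpins in OCI-Ly3 moved the same way with both. Of the 97 rows, 20 fell with both (20.6%, against 5.73% of all rows tested), 39 fell with hairpin 2 alone at the threshold and 1 with hairpin 1 alone. A single row rose with both, where 6.07% of all rows did so, 5 rose with hairpin 2 alone and 1 with hairpin 1 alone, and 30 were called with neither. Among the 20, the median change was -0.52 with hairpin 1 and -0.74 with hairpin 2, and hairpin 2 gave the larger decrease in 18. Among the 39 that fell with hairpin 2 alone the median with hairpin 1 was -0.16, and 31 of them lay below 0. Without OCI-Ly3 non-targeting replicate 1, 21 rows fell with both, 13 of them among the 20, and with OCI-Ly3 fitted on its own 4 did. Without that replicate 8.39% of all rows fell with hairpin 1 and 29.8% with hairpin 2, and with the line alone 1.67% and 21.8%. The share of all rows that fell with both is not given for these settings.

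**Figure D4:**
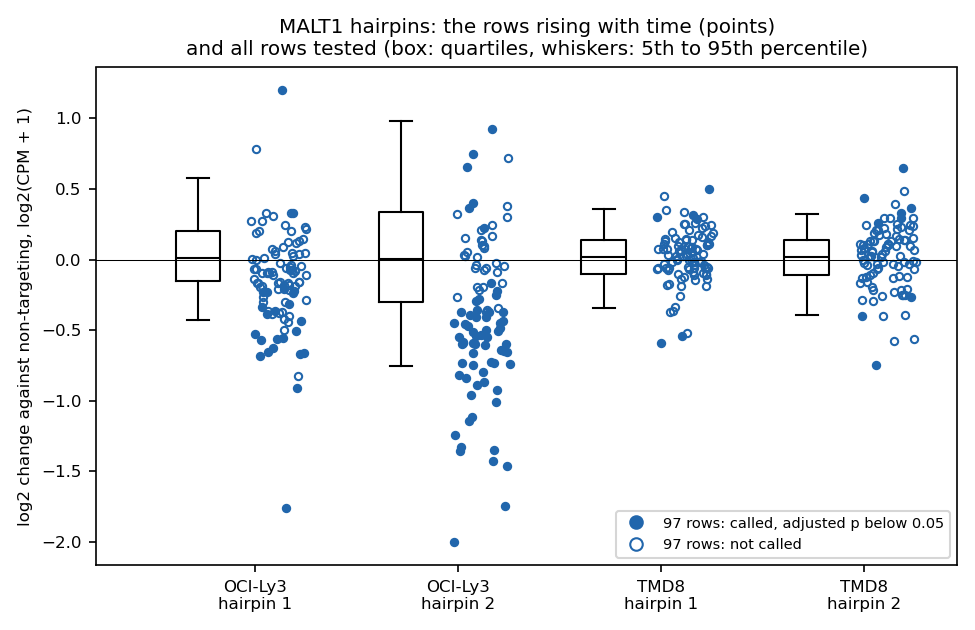
Points give the log2 change of each of the 97 rows against the non-targeting hairpin, filled where it passed the threshold, for each hairpin and line. Boxes give the quartiles of all rows tested with their median, and whiskers the range from the 5th to the 95th percentile. In OCI-Ly3 the points lie mostly below 0, with medians of -0.16 and -0.40, and in TMD8 around 0, with medians of 0.04 and 0.05.

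Row 14203 fell most with the hairpins in OCI-Ly3. It held 13.1, 3.75 and 4.08 CPM in the non-targeting libraries, 0.900, 1.16 and 1.12 CPM with hairpin 1 and 0.546, 0.983 and 0.711 CPM with hairpin 2. Every hairpin library lay far below every control, and non-targeting replicate 1 lay far above the other controls. The log2 change was -1.76 with hairpin 1 (SE 0.28, limma adjusted p = 0.000747) and -2.005 with hairpin 2 (SE 0.28, adjusted p = 2.02e-05), and without non-targeting replicate 1 it was -1.26 and -1.499.

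In TMD8 row 14203 passed the threshold with neither hairpin, although it was lower with hairpin 2. It held 8.98, 9.02 and 9.21 CPM in the controls, 10.4, 8.40 and 9.27 CPM with hairpin 1 and 6.20, 5.52 and 5.78 CPM with hairpin 2. The hairpin 1 libraries surrounded the controls and the hairpin 2 libraries lay below them, with changes of 0.04 (limma adjusted p = 0.972) and -0.56 (adjusted p = 0.252). The effect differed between the lines by -1.80 for hairpin 1 (SE 0.39, adjusted p = 0.013) and by -1.44 for hairpin 2 (SE 0.39, adjusted p = 0.00814), OCI-Ly3 minus TMD8. Without OCI-Ly3 non-targeting replicate 1 these differences were -1.29 (adjusted p = 3.65e-05) and -0.94 (adjusted p = 8.17e-05).

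With compound 3 row 14203 was also low in OCI-Ly3. It stood at 2.43, 1.44 and 2.27 CPM at 8 h and 4.66, 3.23 and 4.58 CPM at 24 h in DMSO, and at 2.03, 1.01 and 1.30 CPM and 0.557, 0.538 and 0.417 CPM with compound 3. The row was thus higher at 24 h in solvent, at 4.16 ± 0.805 CPM (SD, n = 3), and lower at 24 h with the inhibitor, at 0.504 ± 0.0757 CPM (SD, n = 3). Its difference from DMSO at 24 h was -1.77 on the log2 scale. Its change with time under compound 3 was -0.68 (limma adjusted p = 0.276), the lowest of the 98 in that line. In TMD8 it went from 1.38, 2.42 and 3.67 CPM to 4.58, 3.97 and 6.43 CPM with compound 3, so there the 24 h libraries all lay above the 8 h libraries (0.81, SE 0.29, adjusted p = 0.0932). The difference between the lines in this time change was -1.49 (SE 0.41, adjusted p = 0.0721) and missed the threshold.

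Row 9922 was the second of the pair. In OCI-Ly3 it held 24.0, 19.4 and 18.9 CPM in the controls, 12.3, 12.4 and 13.2 CPM with hairpin 1 and 6.91, 6.93 and 6.71 CPM with hairpin 2. The 3 groups did not overlap and stood in that order. Row 9922 fell by 0.67 with hairpin 1 (SE 0.09, limma adjusted p = 0.000149) and by 1.47 with hairpin 2 (SE 0.09, adjusted p = 4.13e-09) on the log2 scale.

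In TMD8 row 9922 held 24.6, 21.2 and 23.5 CPM in the controls, 21.96, 24.1 and 23.2 CPM with hairpin 1 and 19.8, 19.4 and 19.8 CPM with hairpin 2. Hairpin 1 overlapped the controls and hairpin 2 lay just below them, and neither passed the threshold. The effect differed between the lines by -0.68 (SE 0.12, limma adjusted p = 0.00517) and -1.25 (SE 0.12, adjusted p = 2.88e-06). With compound 3, row 9922 rose in TMD8 from 4.75, 10.4 and 8.28 CPM to 17.8, 16.97 and 22.4 CPM, a change of 1.23 (SE 0.27, adjusted p = 0.0106). Without compound 3 replicate 1 at 8 h the change was 0.95 and did not pass (adjusted p = 0.0884), and without both TMD8 8 h libraries numbered 1 it was the same and passed (adjusted p = 0.0137). In OCI-Ly3 it went from 8.46, 8.86 and 12.9 CPM to 14.2, 15.2 and 14.9 CPM, a change of 0.53 that missed the threshold (adjusted p = 0.37).

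**Figure D5:**
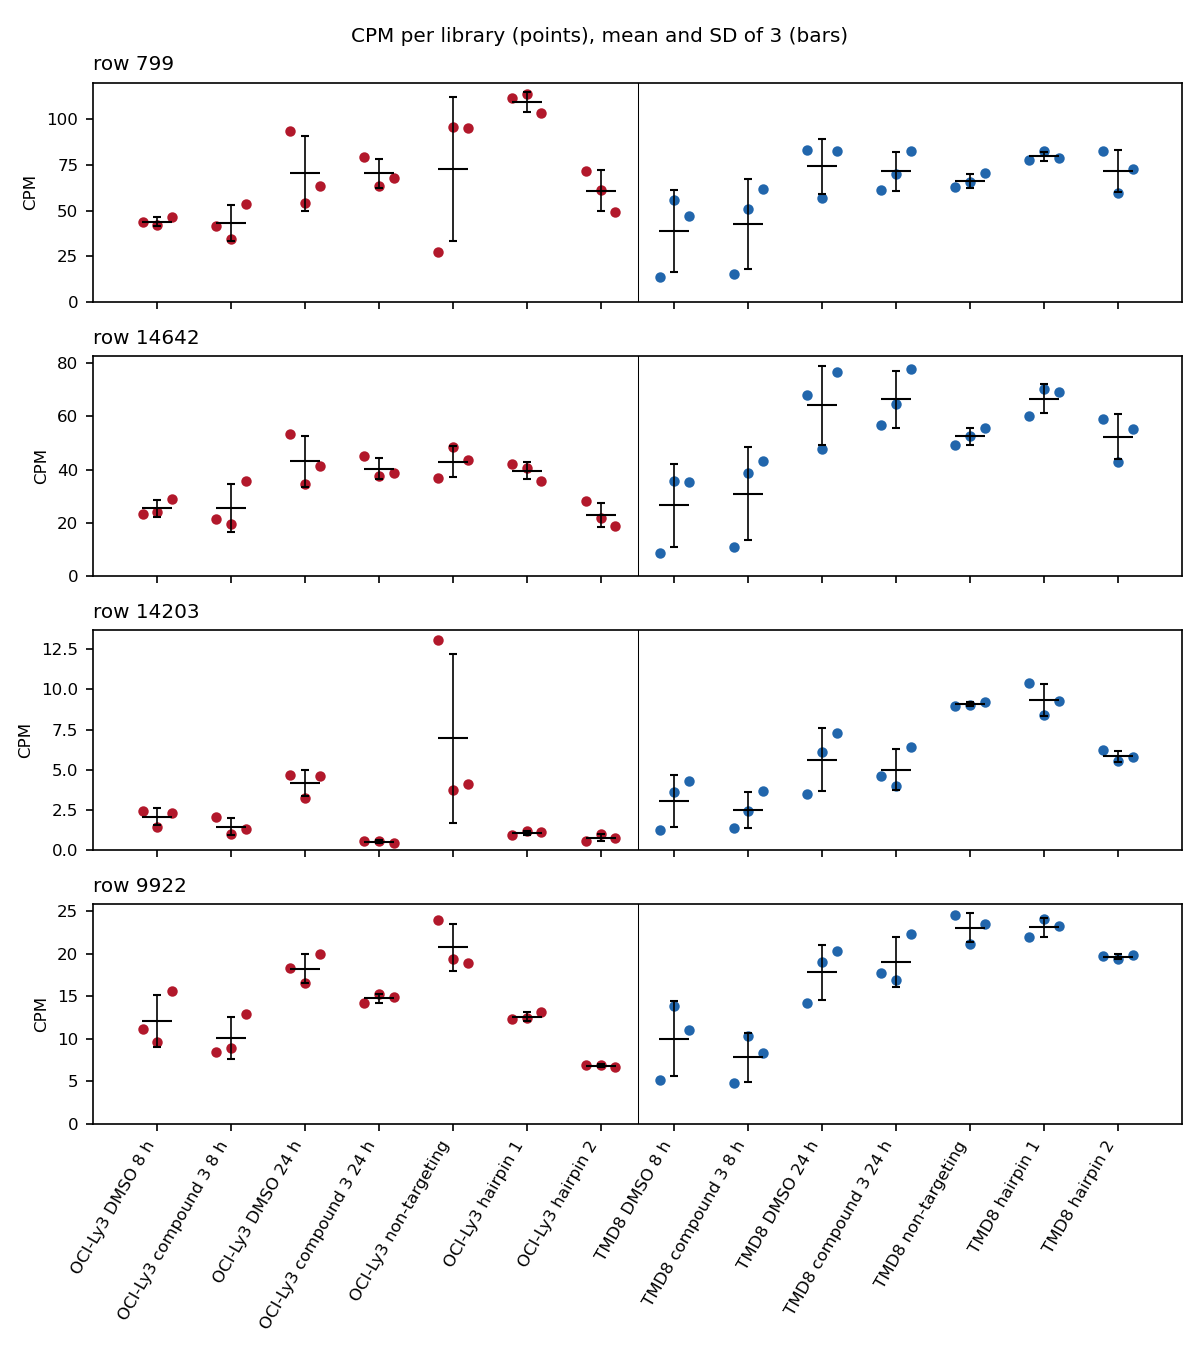
Points give the CPM of rows 799, 14642, 14203 and 9922 in every library, OCI-Ly3 in red and TMD8 in blue, with the mean and SD of 3 libraries as bars. Rows 14203 and 9922 are low with both hairpins in OCI-Ly3. In TMD8 these rows are near their controls with hairpin 1 and below every control with the other hairpin. Rows 799 and 14642 have 1 low 8 h library in each TMD8 group.

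The pair chosen for its change with time behaved differently under the hairpins. Row 14642 held 36.8, 48.6 and 43.5 CPM in the OCI-Ly3 controls, 42.2, 40.6 and 35.9 CPM with hairpin 1 and 28.003, 21.8 and 18.8 CPM with hairpin 2. The hairpin 1 libraries overlapped the controls and the hairpin 2 libraries lay below them. Row 14642 fell with hairpin 2 by 0.89 on the log2 scale (SE 0.14, limma adjusted p = 7.29e-05), while its change with hairpin 1 was -0.11 (adjusted p = 0.603). In TMD8 it held 49.4, 52.7 and 55.6 CPM in the controls and 58.9, 43.0 and 55.4 CPM with hairpin 2, and the difference of the effect between the lines was -0.87 (adjusted p = 0.00259).

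Row 799 held 27.5, 95.6 and 95.6 CPM in the OCI-Ly3 controls, so that non-targeting replicate 1 stood at less than the lowest hairpin 2 library. It held 112, 114 and 104 CPM with hairpin 1 and 71.8, 61.5 and 49.4 CPM with hairpin 2. With all 3 controls its change with hairpin 2 was -0.07 (SE 0.32, limma adjusted p = 0.874), and without replicate 1 it was -0.66 (adjusted p = 0.000258). Whether row 799 was called with hairpin 2 thus turned on the library that stood apart, and with that library it was not called. In TMD8 row 799 held 62.9, 65.9 and 70.5 CPM in the controls, 78.0, 82.7 and 78.9 CPM with hairpin 1 and 82.7, 59.7 and 73.1 CPM with hairpin 2, and neither hairpin passed the threshold.

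The most abundant of the 98 rows moved with the majority. In OCI-Ly3 it held 2318, 1888 and 1837 CPM in the controls, 1743, 1752 and 1641 CPM with hairpin 1 and 1327, 1303 and 1310 CPM with hairpin 2. The groups did not overlap. It fell by 0.23 with hairpin 1 (SE 0.07, limma adjusted p = 0.0466) and by 0.61 with hairpin 2 (SE 0.07, adjusted p = 5.15e-06) on the log2 scale. The hairpin 1 call was lost without non-targeting replicate 1 (adjusted p = 0.059). In TMD8 it lay higher with both hairpins, at 1878 to 1945 CPM with hairpin 1 and 1779 to 1933 CPM with hairpin 2 against 1592 to 1619 CPM in the controls. These changes of 0.24 and 0.21 missed the threshold, but the effect differed between the lines for both hairpins (-0.47, adjusted p = 0.0138, and -0.82, adjusted p = 2.36e-05).

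The only row that rose with both hairpins in OCI-Ly3 was the one that rose there with time under compound 3. It held 9.30, 43.1 and 35.0 CPM in the controls, 59.8, 59.5 and 53.0 CPM with hairpin 1 and 58.0, 46.2 and 39.2 CPM with hairpin 2. Non-targeting replicate 1 was far below the other controls, and the hairpin 2 libraries overlapped the rest. The changes were 1.20 with hairpin 1 (SE 0.36, limma adjusted p = 0.0356) and 0.92 with hairpin 2 (SE 0.36, adjusted p = 0.0416). Without that replicate they were 0.55 (adjusted p = 0.0264) and 0.27 (adjusted p = 0.155), so the call with hairpin 2 was lost.

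In TMD8 few rows moved with the hairpins. MALT1 hairpin 1 raised 4 of the 97 rows and lowered 2 (limma, adjusted p below 0.05), where 2.01% of all rows rose and 1.89% fell. Hairpin 2 raised 6 and lowered 3, where 4.87% and 3.67% of all rows did. The medians were 0.04 and 0.05 against 0.02 over all rows for each hairpin, and 86 rows were called with neither. With both hairpins 3 rows rose and 1 fell, where 0.821% and 0.959% of all rows did. Summed over the rows, TMD8 libraries held 6734 to 6970 CPM with the non-targeting hairpin, 7305 to 7549 CPM with hairpin 1 and 7217 to 7781 CPM with hairpin 2. The hairpin libraries thus lay above the controls in sum, and hairpins 1 and 2 overlapped. Without overlap, 29 rows lay above the controls and 12 below with hairpin 1, where 25.7% and 17.3% of all rows did, and 26 above and 18 below with hairpin 2, where 20.7% and 15.7% did. The counts in TMD8 were larger when the OCI-Ly3 libraries did not set the spread, at 22 rows for hairpin 1 and 27 for hairpin 2 with TMD8 fitted on its own, and the shares of all rows rose as well, to 10.6% raised by hairpin 1 and 7.7% lowered, and to 13.6% raised by hairpin 2 and 10.1% lowered.

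The row that fell with both hairpins in TMD8 held 21.1, 22.2 and 21.3 CPM in the controls, 13.2, 13.9 and 16.6 CPM with hairpin 1 and 12.7, 10.3 and 14.5 CPM with hairpin 2. The controls were apart from both hairpins. The changes were -0.54 (SE 0.13, limma adjusted p = 0.0322) and -0.75 (SE 0.13, adjusted p = 0.00242). In OCI-Ly3 the same row held 41.3, 58.4 and 60.2 CPM in the controls and 70.1, 75.9 and 63.3 CPM with hairpin 2, a change of 0.40 (adjusted p = 0.0206) that was not called without non-targeting replicate 1 (0.23, adjusted p = 0.0897). The effect differed between the lines for hairpin 1 (0.74, adjusted p = 0.0287) and hairpin 2 (1.15, adjusted p = 0.000237). The row that rose most in TMD8 went from 28.8, 30.7 and 28.4 CPM in the controls to 42.2, 41.2 and 42.5 CPM with hairpin 1 (0.50, adjusted p = 0.00691) and 40.3, 41.1 and 38.6 CPM with hairpin 2 (0.43, adjusted p = 0.00839).

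Tested directly, the effect of hairpin 2 differed between OCI-Ly3 and TMD8 in 56 of the 97 rows (limma, adjusted p below 0.05), and it lay lower in OCI-Ly3 in 51 of these and higher in 5, where 21.4% and 18.6% of all rows did. The effect of hairpin 1 differed in 15 rows, lower in OCI-Ly3 in 14 and higher in 1, where 3.93% and 3.87% of all rows did. The median differences were -0.45 and -0.17, against -0.01 and -0.02 over all rows. In 13 rows the effect was lower in OCI-Ly3 for both hairpins, a count given with no share over all rows. Among the 20 rows that fell with both hairpins in OCI-Ly3, the median in TMD8 was -0.01 with each hairpin, and 1 fell in TMD8 with hairpin 1 and none with hairpin 2. The count for hairpin 1 was 26 without OCI-Ly3 non-targeting replicate 1 and 9 without TMD8 hairpin 1 replicate 2. Of all rows, 7.56% and 1.58% were lower in these settings and 6.92% and 1.85% higher.

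The groups of rows that the hairpins defined in OCI-Ly3 can be followed in the compound experiment, which shares no library with the knockdown. All 20 rows that fell with both hairpins lay lower with compound 3 than with DMSO at 24 h in OCI-Ly3, with a median of -0.28. Of the 39 that fell with hairpin 2 alone 35 lay lower, with a median of -0.21. Of the 30 called with neither 24 lay lower, with a median of -0.16, and of the 7 that rose with either hairpin 3 did, with a median of 0.04. At 8 h the medians of these groups were -0.05, 0.06, 0.13 and 0.11. In TMD8 at 24 h they were -0.02, -0.05, -0.16 and -0.17, so the groups stood in another order. The 24 h DMSO libraries are among those that chose the rows, which favours lower values with compound 3, and no test was made.

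Across the 97 rows, the change with compound 3 at 24 h in OCI-Ly3 correlated with that of hairpin 1 at Pearson's r = 0.68 (Spearman's rho = 0.482) and with that of hairpin 2 at r = 0.56 (rho = 0.477). Over the 12038 rows tested in both experiments r was 0.504 and 0.547, with no rho given. Row 14203 was the lowest of the 97 for compound 3 (-1.77), hairpin 1 (-1.76) and hairpin 2 (-2.005) in OCI-Ly3. Its part in the correlations was not tested. In TMD8 the values for the 97 rows were r = 0.245 (rho = 0.372) and r = 0.0187 (rho = 0.0452), against 0.164 and 0.0594 over all rows. They run across rows rather than samples, rows do not vary independently, and no test was made. Within a line, the correlations with hairpin 1 and hairpin 2 share the compound experiment's libraries and the non-targeting libraries.

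The level of the rows in each line was compared as well. In the non-targeting libraries 37 of the 97 rows were higher in OCI-Ly3 and 32 lower (limma, adjusted p below 0.05), where 37.3% and 32.4% of all rows were, so their share was near that of all rows. Of these, 27 differed at least 2-fold and 6 at least 4-fold. The mean CPM of the rows correlated between the lines at a Spearman's rho of 0.786, against 0.867 over all rows tested. The row with the largest excess in OCI-Ly3 held 40.8, 64.3 and 62.6 CPM there and 5.004, 4.53 and 4.43 CPM in TMD8, a log2 difference of 3.30 (SE 0.16, adjusted p = 1.52e-11). The row with the largest deficit held 5.50, 5.23 and 3.59 CPM in OCI-Ly3 and 98.8, 89.3 and 86.8 CPM in TMD8, a log2 difference of -4.02 (SE 0.12, adjusted p = 4.26e-14).

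These extreme rows kept their order with time. The first held 42.2, 49.1 and 38.6 CPM at 8 h and 73.5, 72.1 and 70.6 CPM at 24 h with DMSO in OCI-Ly3, against 0.620, 2.47 and 1.78 CPM and 5.25, 5.54 and 5.45 CPM in TMD8. It rose with compound 3 in TMD8 (1.09, SE 0.22, limma adjusted p = 0.0059), a call lost without compound 3 replicate 1 at 8 h (0.80, adjusted p = 0.0512) and kept without both TMD8 8 h libraries numbered 1 (0.80, adjusted p = 0.00134). The second held 1.29, 1.72 and 2.38 CPM at 8 h and 3.22, 3.00 and 5.44 CPM at 24 h with DMSO in OCI-Ly3, against 27.8, 58.6 and 47.8 CPM and 84.1, 111 and 90.4 CPM in TMD8. It fell with hairpin 1 in OCI-Ly3 by 0.91 (SE 0.12, adjusted p = 0.000186) on the log2 scale, from a control range of 3.59 to 5.50 CPM to 1.85 to 2.29 CPM.

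Likeness to the cited rows was measured among the 98 rows alone, as the correlation of log2(CPM + 1) across the 14 group means, which include the DMSO groups that chose the rows. The closest pair had r = 0.903 and 0.855 to row 799, 0.944 and 0.919 to row 14642, 0.889 and 0.875 to row 14203 and 0.94 and 0.936 to row 9922. The median correlation with all other rows of the list was 0.474, 0.551, 0.254 and 0.465, so row 14203 was the least like the rest. Row 14642 correlated above 0.8 with 17 other rows, row 9922 with 10, row 799 with 6 and row 14203 with 4. These values describe 14 points that share line and time, and carry no test.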

How the data were processed

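The deposited values are CPM per numbered row for each library, made by the authors, and the library kit was a TruSeq stranded mRNA kit, per the labels' protocols. STAR, with no version, and the build hg19 are named, per the submitters' processing notes. The counter is not given in the sources used here. With no gene names, rows whose reads may belong in part to paralogs or overlapping genes are not marked. Every value was a whole multiple of 1 read (100% within 1e-06), so reads were recovered and edgeR 4.0.16 and DESeq2 1.42.0 were run on them as alternatives. No column of per-sample values was left unused (0). Row numbers were taken to name the same gene model in both experiments.

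Tests used limma (3.58.1, under R 4.3.3): log2(CPM + 1) was fitted with a mean for each group, 1 model per experiment, eBayes with a trend, Benjamini-Hochberg adjustment over all rows tested and a two-sided threshold of 0.05. Rows with at least 1 CPM in at least 3 libraries were tested, which left 12589 rows for compound 3 and 12303 for the hairpins. The fold changes understate those of low rows. The fit was tested on simulated data. Alternatives were another pseudocount (0.25), no filter, median-ratio rescaling, each line fitted alone, a replicate block and each library left out. Groups and replicate numbers came from the sample titles. The chi-square per degree of freedom between replicates was 1.71 or more, so each library counted as a sample.

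The rows and the tests were chosen with earlier results of these data known. At most 4 rows are cited by number: the 2 with the largest smaller change with compound 3 over both lines among those called higher in both (none was, so among all 98), and the 2 with the lowest mean change over both hairpins in OCI-Ly3 among the 20 lower with both. Other rows are described without a number, and were chosen after their values were seen. Same-numbered libraries deviated together (every correlation above 0.1 over 3 pairs) between compound 3 and DMSO at 8 h in both lines and at 24 h in OCI-Ly3, and between the DMSO times in OCI-Ly3. They did not for the compound 3 times or for the hairpins. All comparisons were fitted without a block. No share over all rows is given for changes of at least 2-fold or 4-fold, or for rows called with neither hairpin.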

Additional observations from a re-analysis of the deposited data

Results flagged for a closer look

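Several effects differed between the lines by a test of the difference itself (limma, adjusted p below 0.05), OCI-Ly3 minus TMD8. The change with time under compound 3 differed in 1 of the 98 rows, where 1.59% of all rows did. The effect of MALT1 hairpin 1 differed in 15 of the 97 rows tested and that of hairpin 2 in 56. Among the rows cited by number, the hairpin 2 effect on row 14642 differed by -0.87. The effects on row 14203 differed by -1.80 for hairpin 1 and -1.44 for hairpin 2, and by -1.29 and -0.94 without OCI-Ly3 non-targeting replicate 1. Those on row 9922 differed by -0.68 and -1.25. For hairpin 1, 14 of the 15 rows lay lower in OCI-Ly3, where 3.93% of all rows were lower and 3.87% higher. For hairpin 2, 51 of the 56 lay lower, where 21.4% of all rows were lower and 18.6% higher.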

How the results depend on the processing

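The medians of compound 3 against DMSO at 8 h crossed 0 when 1 library was left out. Without OCI-Ly3 non-targeting replicate 1, row 799 went from -0.07 to 0.52 between the lines and its hairpin 1 line difference from 0.52 to -0.07 on the log2 scale. The causes were not tested. The rule found 197 rows with group means. With compound 3 the TMD8 count of 35 was 21 with no filter, 6 with the line fitted alone and 17 without both 8 h libraries numbered 1. Of all rows, 1.72%, 0.997% and 1.57% were called higher there, against 3.42% in the main fit. The OCI-Ly3 count of 1 was 2 after rescaling and with the line alone, 4 with DESeq2 and 10 without both TMD8 8 h libraries numbered 1. Shares of all rows called higher in these settings were 0.461%, 0.185%, 1.18% and 1.08%. The line difference was called in 2 rows with a pseudocount of 0.25, edgeR or DESeq2. In those fits 0.81%, 0.495% and 1.59% of all rows were called lower and 0.596%, 0.495% and 1.25% higher. Hairpin 1 in OCI-Ly3 gave 5 with the line alone, where 1.67% of all rows fell and 1.62% rose. In TMD8 the line alone gave 22 and 27 for hairpins 1 and 2. Of all rows, 10.6% and 13.6% rose there and 7.7% and 10.1% fell. With OCI-Ly3 non-targeting replicate 1 out of the shared spread, an alternative chosen after seeing the data, the TMD8 counts were 22 and 25. In that fit 8.66% and 12.9% of all rows rose and 7.24% and 9.97% fell.

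The replicate numbers did not pair the compound 3 times or the hairpin groups. They did pair compound 3 with DMSO at 8 h in both lines, where the block gave 0 calls. They also did at 24 h in OCI-Ly3, where it gave 3, with 1.8% of all rows called higher and 0.572% lower. With the replicate block, 69 rows were called with time in TMD8, where 11.2% of all rows were called higher, 4 in OCI-Ly3, where 2.07% were, and 4 in the line difference, where 2.15% were called higher and 3.26% lower. The block gave 17 and 62 rows for hairpins 1 and 2 in OCI-Ly3, 5 and 7 in TMD8, 13 and 53 for their line differences, and 66 for the level of the lines. Shares of all rows called higher and lower were 6.18% and 6.29% for hairpin 1 and 25.6% and 25.1% for hairpin 2 in OCI-Ly3. In TMD8 these shares were 1.23% and 1.41%, and 3.73% and 3.08%. For the line differences they were 3.37% and 3.02%, and 17.9% and 20%, and for the level 36.6% and 31.8%.

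Leaving out 1 library at a time gave 51 to 206 rows by the rule. The time change gave 1 to 3 calls in OCI-Ly3, 4 to 67 in TMD8 and 1 to 2 for the line difference. Shares of all rows called higher ran from 0.127% to 0.819% in OCI-Ly3 and from 0.581% to 8.19% in TMD8. For the line difference 0.302% to 1.77% of all rows were called lower and 0.31% to 0.97% higher. Hairpins 1 and 2 gave 13 to 28 and 57 to 70 in OCI-Ly3, 2 to 3 and 5 to 7 in TMD8, and 9 to 26 and 47 to 65 for the line differences. Of all rows, 3.95% to 11.6% and 23.3% to 29.8% fell in OCI-Ly3 and 3.66% to 13.3% and 22.7% to 27.8% rose. In TMD8 0.7% to 1.31% and 1.99% to 2.64% fell and 0.431% to 0.993% and 2.29% to 3.3% rose. For the line differences 1.47% to 7.56% and 18.7% to 26.7% were lower and 1.77% to 6.92% and 16.1% to 22.4% higher. The level of the lines gave 61 to 77, where 34.8% to 41.3% of all rows were higher in OCI-Ly3 and 30.2% to 33.8% lower. The log2 change of row 799 with time ranged from 0.56 to 0.87 in OCI-Ly3 and 0.33 to 1.32 in TMD8, and that of row 14642 from 0.53 to 0.95 and 0.68 to 1.63. With hairpins 1 and 2 in OCI-Ly3, row 14203 ranged from -2.04 to -1.26 and -2.28 to -1.499, and row 9922 from -0.73 to -0.57 and -1.53 to -1.36. The values that moved numbered 43. Of the other values, 105 for single rows and 123 counts kept their side of the threshold or stayed within 1.5 times, and 3 single-row values newly passed. Low rows such as row 14203 rest on few reads, which limits their precision.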

Other observations

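One of the 98 rows was present in both lines in the compound experiment and listed at 0 CPM in all 18 knockdown libraries. With DMSO it held 2.86, 9.09 and 4.42 CPM at 8 h and 5.40, 7.51 and 7.86 CPM at 24 h in OCI-Ly3, and 1.43, 5.39 and 3.84 CPM at 8 h and 7.82, 9.59 and 5.67 CPM at 24 h in TMD8. The times overlapped in OCI-Ly3, where the highest value was at 8 h, and did not in TMD8. Of the 11030 rows eligible for the rule, 15 were listed at 0 in every knockdown library.

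In DMSO, 229 eligible rows had a change of -0.5 or less on the log2 scale from 8 h to 24 h in both lines, against the 98 with a change of 0.5 or more. The row with the largest rise in TMD8 under compound 3 held 6.19, 11.04 and 9.36 CPM in the OCI-Ly3 controls of the knockdown and 5.12 to 7.48 CPM with hairpin 1. That change of -0.45 missed the threshold (limma adjusted p = 0.0625), and without OCI-Ly3 non-targeting replicate 1 it was -0.66 (adjusted p = 0.00105).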
